A study of Mus musculus with 23 samples.

Results

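The B6xPWD hybrid was compared with the midpoint of its parental strains, gene by gene, in 3 arrays of B6xPWD F1 males against 3 arrays of PWD and 3 arrays of B6, which are 9 of the 23 arrays of the series. B6xPWD is the cross of a B6 female with a PWD male, PWD is an inbred strain of Mus musculus musculus, and B6 is a classical inbred strain, largely derived from Mus musculus domesticus. All animals were untreated juvenile males aged 14.5 days, and each array held RNA from a pool of 4 testes, from which the protocol isolated the spermatogenic cells. PWDxB6, the reciprocal cross (3 arrays), and the F1s within a subspecies, PWDxPWK, B6xBALB/C and BALB/CxB6 (11 arrays), were of the same age and serve below as further comparisons. The question of the comparison was which genes of an F1 hybrid leave the range set by its parents and which lie between them.

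In an F1 hybrid every autosomal gene is present in a copy from each parental strain. A gene whose copies act independently gives a level midway between the parents, called additive, and a level above or below both parents is called transgressive. In the juvenile testis the earliest cohort of germ cells passes through the prophase of meiosis, and males of the PWDxB6 direction are a textbook case of hybrid sterility with arrest at that stage, while males of the B6xPWD direction produce sperm. A hybrid male has a single X, here from B6, and a Y from PWD, so X-linked and Y-linked genes have no mid-parent value, and the results cover autosomal genes.

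Of the 14746 genes with enough signal to be tested, 14222 are autosomal. Values are the deposited log2 signals, so a difference of 1 is a factor of 2, and a gene was called when the adjusted p of the limma test was under 0.05. Array medians ran from 6.13 to 6.26 over the 9 arrays, whose small number sets the precision. Over the 3 B6xPWD arrays, replicate 2 lay nearest to the other 2 and replicate 3 farthest, with root mean square distances of 0.199 for replicate 2, 0.230 for replicate 1 and 0.283 for replicate 3, against 0.151 to 0.183 in PWD and 0.235 to 0.242 in B6. The germ cell markers were measured in the preparation, with array means of the 6 markers of 10.27 to 10.42 in B6xPWD, 9.64 to 9.86 in PWD and 9.79 to 10.09 in B6. All 11 autosomal Sertoli cell markers on the array also passed the filter on dim signal, with array means of 9.78 to 9.87 in B6xPWD, 9.88 to 10.06 in PWD and 10.03 to 10.12 in B6, so the preparations held RNA of somatic cells as well.

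Against the mid-parent, 1999 autosomal genes passed the test in B6xPWD (14.1% of those tested), 1043 higher (7.33%) and 956 lower (6.72%). With each array centred on its autosomal median these were 1257 higher and 596 lower. PWD and B6 differed in 2623 autosomal genes (18.4%). The hybrid was above both parents, past the test against each, in 324 genes (2.28%), and below both in 173 genes (1.22%). Of these, 310 (2.18%) and 165 (1.16%) also had no overlap between the 3 hybrid and the 6 parental arrays, while 1018 genes (7.16%) lay above and 974 (6.85%) below all parental arrays regardless of any test. The split of calls was 407 and 91 with centred arrays, and 257 and 219 with quantile normalization. It was additive in 457 genes (3.21%), which here means that the parents differed, that the 95% interval of the mid-parent difference lay within the parental range, and that the estimate lay in its middle part. Another 515 genes (3.62%) lay near the PWD level and 481 (3.38%) near the B6 level. The median of all autosomal mid-parent differences was -0.03, and no scaling tried moved it by more than 0.1.

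**Figure D1:**
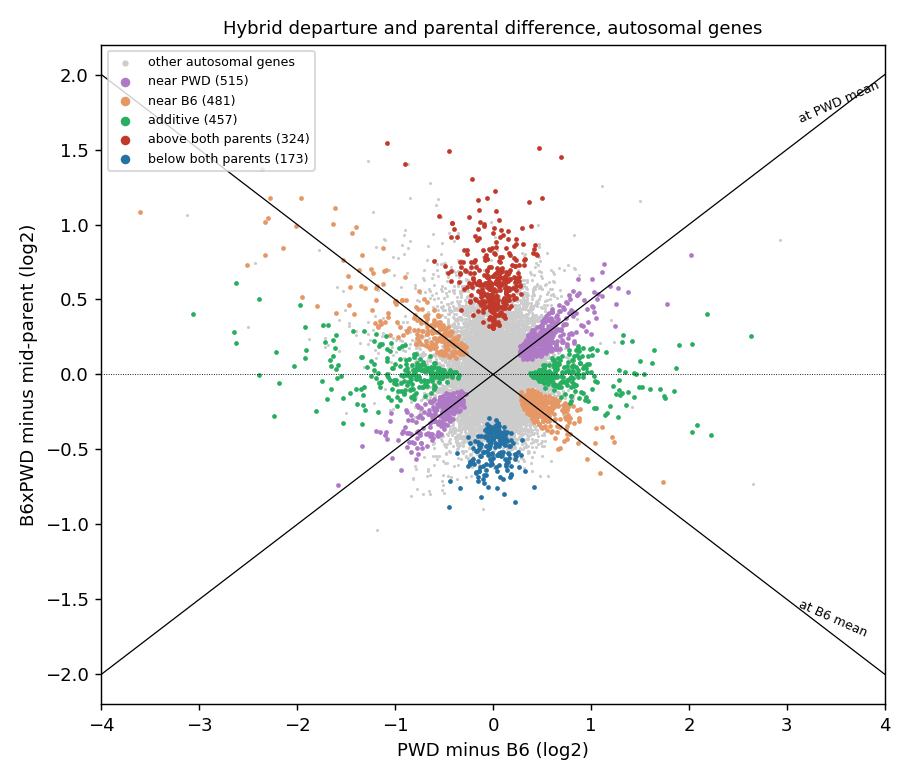
Each point is an autosomal gene, placed by the parental difference (PWD minus B6, log2) on the x axis and by B6xPWD minus mid-parent (log2) on the y axis; the diagonals mark the PWD and B6 means, and 1 gene lies outside the plotted range. The 324 genes above and the 173 genes below both parents stand over and under a narrow parental difference, while the 457 additive genes lie along the horizontal line at 0.

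These counts rested on single arrays. Without B6xPWD replicate 2 the hybrid was outside the parental range in 117 genes in place of 497 (3.49%), with 76 above and 41 below, of which 76 and 33 were among the genes called with all arrays. The total was 231 to 301 when any PWD array, or B6 replicate 1 or 2, was left out. Without B6xPWD replicate 1 the numbers were 178 above and 181 below, of which 157 and 70 were among the genes called with all arrays, so the excess of genes above was not seen without that array. The mid-parent count was 325 without B6xPWD replicate 2 and 1295 without replicate 1, and it ran up to 2292 without B6 replicate 3. Additive genes numbered 308 to 504 over the same 9 fits.

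**Figure D2:**
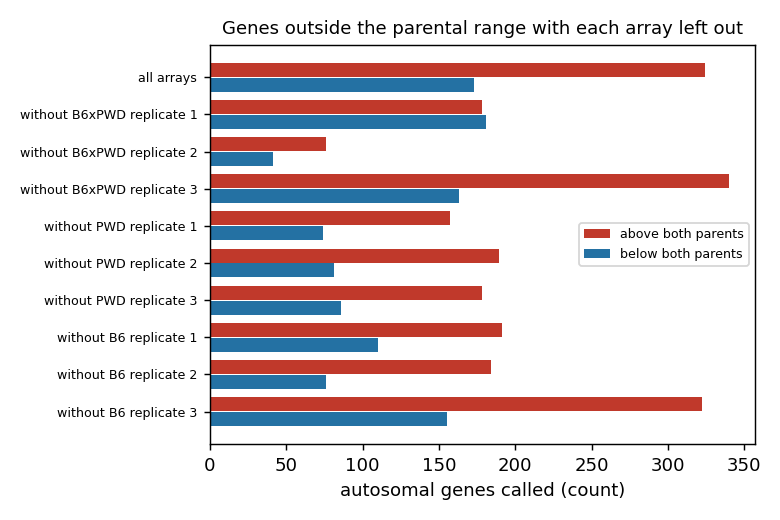
Bars give the number of autosomal genes above (red) and below (blue) both parental strains with all arrays and with each of the 9 arrays left out in turn. The smallest counts, 76 above and 41 below, are those without B6xPWD replicate 2.

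The promoters of genes outside the range are shown here as a description of the 2 classes, above and below both parents. The letters of 8 common motifs were counted in the 250 bases upstream of the start listed by RefSeq (GRCm38.p6, for each gene the window listed at the top). ETS and SP1 are detailed, the motifs with the widest gaps between genes above and below both parents. Of the 14222 genes 11219 had such a window, among them 261 of those above both parents, 131 of those below and 359 additive genes. The letters CCGGAAG, the core recognised by ETS family factors, stood on either strand in 21.1% of the windows of genes above both parents, in 6.11% of those below, in 6.96% of additive genes and in 12.2% of all windows. The letters GGGCGG, the core of an SP1 site, stood in 53.6% of windows above, 71.8% below, 54.3% additive and 56.6% of all. NRF1 letters stood in 11.9% of windows above, 6.87% below, 4.74% additive and 7.49% of all. E-box letters stood in 9.96% above, 4.58% below, 9.75% additive and 8.21% of all. The letters of YY1, MYB, CRE and RFX stood in at most 4.6% of the windows of any of these classes. These shares are descriptions without a test, motifs may overlap each other, and a match is not a binding site.
The following are 4 of the 12 leading genes above both parents, picked because their windows hold the ETS letters, which are in capitals on either strand:
Rps21 (chr2:180257129-180257378, plus strand): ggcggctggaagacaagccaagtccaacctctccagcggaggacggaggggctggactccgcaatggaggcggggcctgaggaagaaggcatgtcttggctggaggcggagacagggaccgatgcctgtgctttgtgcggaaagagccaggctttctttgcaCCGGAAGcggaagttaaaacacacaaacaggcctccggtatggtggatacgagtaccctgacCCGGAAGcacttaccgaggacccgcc
Rpl39l (chr16:10169978-10170227, plus strand): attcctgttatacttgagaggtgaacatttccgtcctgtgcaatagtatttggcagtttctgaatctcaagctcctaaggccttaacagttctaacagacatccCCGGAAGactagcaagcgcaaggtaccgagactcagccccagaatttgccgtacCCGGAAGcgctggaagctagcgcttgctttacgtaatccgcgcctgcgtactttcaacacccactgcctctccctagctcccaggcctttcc
Swi5 (chr2:32288070-32288319, minus strand): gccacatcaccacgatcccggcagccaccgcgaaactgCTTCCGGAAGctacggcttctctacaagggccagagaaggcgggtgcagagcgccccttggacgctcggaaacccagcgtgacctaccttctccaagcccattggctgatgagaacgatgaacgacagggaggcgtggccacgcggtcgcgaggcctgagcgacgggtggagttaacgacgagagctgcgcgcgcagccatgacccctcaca
Tex30 (chr1:44102442-44102691, minus strand): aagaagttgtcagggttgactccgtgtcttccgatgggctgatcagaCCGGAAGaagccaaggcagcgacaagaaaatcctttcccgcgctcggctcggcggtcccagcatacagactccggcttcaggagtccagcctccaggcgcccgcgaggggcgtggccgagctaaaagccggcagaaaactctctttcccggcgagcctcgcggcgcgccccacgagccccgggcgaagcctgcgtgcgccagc
Next are 2 retinoic acid genes below both parents, whose windows hold the SP1 letters, in capitals on either strand:
Rara (chr11:98937446-98937695, plus strand): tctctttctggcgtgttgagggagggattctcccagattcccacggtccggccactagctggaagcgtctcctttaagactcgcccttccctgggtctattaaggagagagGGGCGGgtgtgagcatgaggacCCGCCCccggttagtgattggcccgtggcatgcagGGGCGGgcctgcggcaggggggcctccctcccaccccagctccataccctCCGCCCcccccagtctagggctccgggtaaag
Cyp26b1 (chr6:84593811-84594060, minus strand): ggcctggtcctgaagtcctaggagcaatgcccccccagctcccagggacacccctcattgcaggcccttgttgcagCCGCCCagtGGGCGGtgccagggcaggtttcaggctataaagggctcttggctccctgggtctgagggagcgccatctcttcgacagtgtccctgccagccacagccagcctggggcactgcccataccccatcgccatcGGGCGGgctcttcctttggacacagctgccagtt
Rps21 and Rpl39l held the ETS letters at 2 places each, Swi5 at 2 overlapping places and Tex30 at 1 place. Hyls1, another leading gene above both parents whose window is not printed, also held the ETS letters at 1 place. No window was at hand for the leading genes Hint1, Got1l1, Snord47, Tomm7 and Dppa4. Rara held the SP1 letters at 4 places and Cyp26b1 at 3. The window of Cox7b2, the gene farthest above the nearer parent, held the SP1 letters and no ETS letters. In other windows of the named genes, that of Pdha2 and that of Obsl1 held neither the ETS nor the SP1 letters.

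The 12 leading genes above both parents were Cox7b2, Rpl39l, Rps21, Hint1, Got1l1, Snord47, Hyls1, Swi5, Tomm7, Pdha2, Dppa4 and Tex30. Pdha2, the testis form of the pyruvate dehydrogenase alpha subunit and an intronless copy of an X-linked gene, had log2 levels of 7.92, 7.95 and 7.26 in B6xPWD, against 5.64, 5.60 and 5.64 in PWD and 6.59, 6.39 and 7.13 in B6. The groups did not overlap, and the level was 1.54 above the mid-parent (SE 0.301, adjusted p = 0.00358). The call against B6 was close to the threshold (adjusted p = 0.0499), and the gene stayed above both parents in only 2 of 9 fits with an array left out. Got1l1, a relative of the cytosolic aspartate aminotransferase, read 7.16, 7.76 and 7.56 in B6xPWD, against 6.34, 6.28 and 6.24 in PWD and 6.60, 6.37 and 6.07 in B6. Its parents differed by 0.06 (adjusted p = 0.847 for PWD minus B6, -0.06), every hybrid array was above every parental array, and the mid-parent difference was 1.18 (SE 0.145, adjusted p = 7.62e-05).

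Rps21, a protein of the small ribosomal subunit, stood at 8.94, 8.95 and 8.10 in B6xPWD, against 7.39, 7.25 and 7.70 in PWD and 7.31, 7.31 and 7.67 in B6, a difference of 1.22 (SE 0.243, adjusted p = 0.00394). Rpl39l, a ribosomal protein gene of male germ cells related to an X-linked gene, stood at 8.83, 9.20 and 8.34 in B6xPWD, against 6.95, 7.06 and 7.21 in PWD and 7.29, 7.52 and 7.76 in B6, a difference of 1.49 (SE 0.307, adjusted p = 0.00457). In both genes B6xPWD replicate 3 was the lowest hybrid array and still lay above all parental arrays. Rpl39l lost its place above both parents without B6xPWD replicate 2 or B6 replicate 1 or 2, whereas Rps21 kept it in all 9 fits. Ribosomal protein genes have many near-identical copies in the genome, so the signal of a single member is uncertain.

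Hint1, a histidine triad nucleotide-binding protein, read 10.22, 10.24 and 9.81 in B6xPWD, against 8.40, 8.66 and 8.98 in PWD and 8.74, 8.93 and 9.02 in B6, 1.30 above the mid-parent (SE 0.255, adjusted p = 0.00365). Tomm7, a small subunit of the protein import pore of the outer mitochondrial membrane, read 10.41, 10.58 and 9.74 in B6xPWD, against 9.14, 9.07 and 9.02 in PWD and 8.80, 9.35 and 9.49 in B6. Cox7b2, a testis-expressed subunit of cytochrome c oxidase, read 8.47, 8.71 and 7.77 in B6xPWD, against 6.80, 7.28 and 7.03 in PWD and 6.25, 6.80 and 6.68 in B6. In Tomm7 and Cox7b2 the lowest hybrid array was again replicate 3, with mid-parent differences of 1.10 (adjusted p = 0.00393) and 1.51 (adjusted p = 0.00494).

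Swi5, a partner of the strand-exchange machinery of homologous recombination, stood at 9.31, 9.51 and 8.71 in B6xPWD, against 7.99, 8.47 and 7.84 in PWD and 7.70, 8.20 and 8.32 in B6. Its mid-parent difference was 1.09 (SE 0.218, adjusted p = 0.00401). Hyls1, a centriole protein needed for cilia, was 1.16 above the mid-parent (adjusted p = 0.00384) and Tex30, a testis-expressed gene, 0.98 (adjusted p = 0.00174). Tex30 had the tightest hybrid arrays of these, 11.50, 11.57 and 11.37 in B6xPWD, against 10.29, 10.43 and 10.81 in PWD and 10.30, 10.52 and 10.68 in B6. Dppa4, a nuclear protein of pluripotent and germ cells, was 1.03 higher (adjusted p = 0.01), with 7.20 in B6xPWD replicate 3 against 6.22 and 6.20 in the other hybrid arrays. Snord47, a C/D box small nucleolar RNA, was 1.45 higher (adjusted p = 0.00595), with 7.97 in the same array against 7.06 and 7.17. Of these 12 leading genes 6 stayed above both parents in all 9 fits with an array left out, namely Got1l1, Hint1, Hyls1, Rps21, Swi5 and Tex30, and 5 lost the call without B6xPWD replicate 2.

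**Figure D3:**
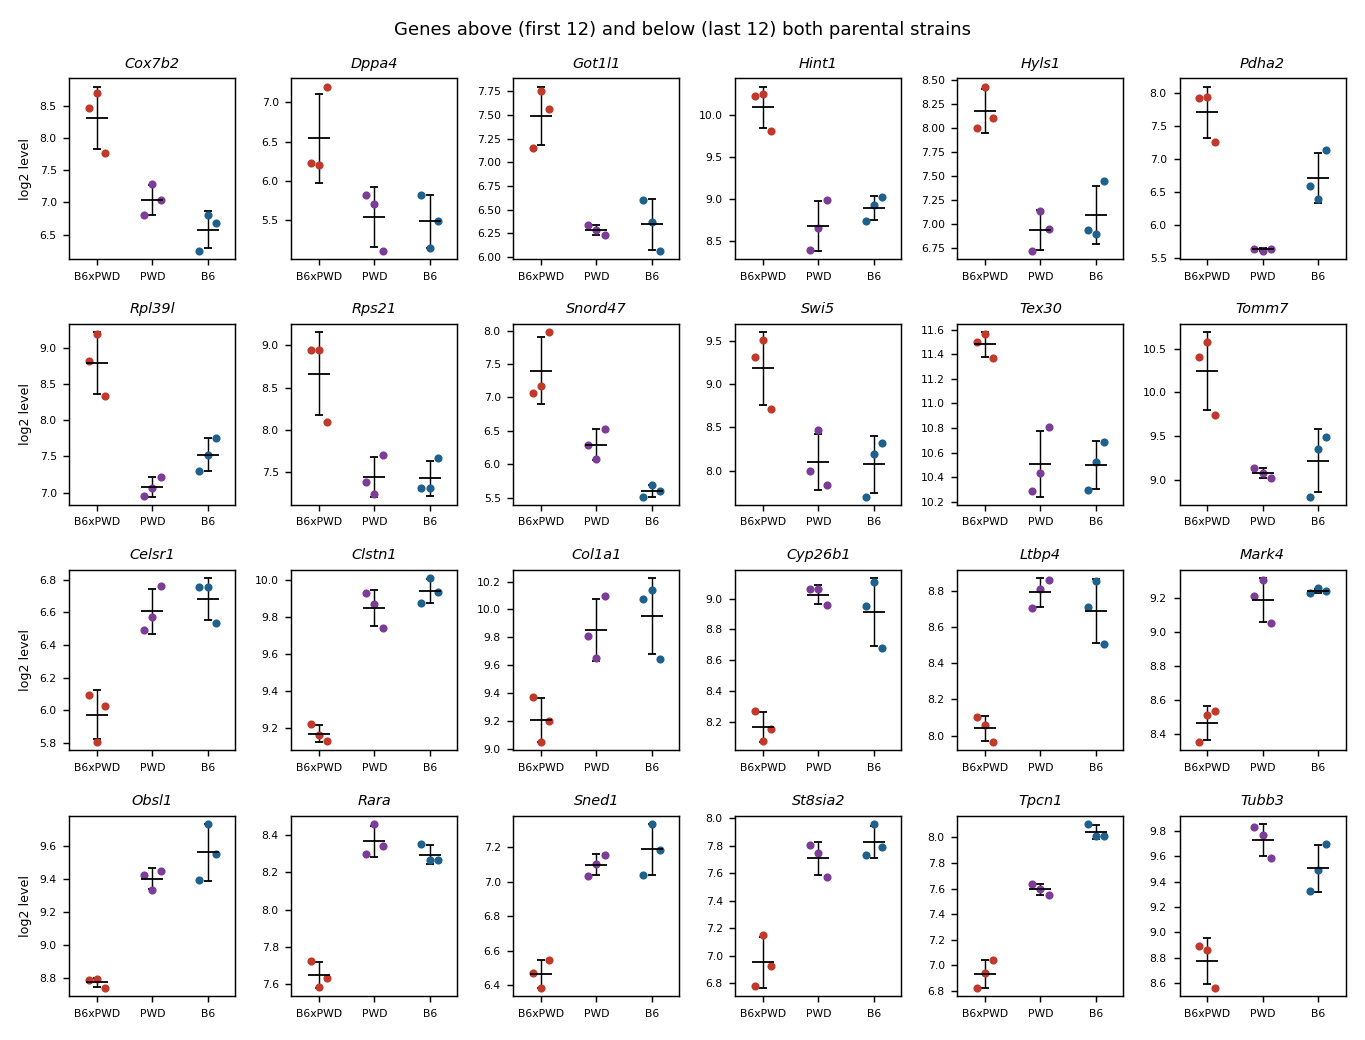
Log2 levels of the 12 genes above and the 12 genes below both parental strains, with a point per array, from left B6xPWD, PWD and B6, and lines for the mean ± SD (n = 3 each); each panel has its own y axis. In each panel the 3 B6xPWD arrays lie outside the range of the 6 parental arrays.

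The 12 leading genes below both parents were St8sia2, Cyp26b1, Tubb3, Mark4, Clstn1, Tpcn1, Ltbp4, Col1a1, Rara, Celsr1, Obsl1 and Sned1. Rara, the alpha receptor of retinoic acid, read 7.72, 7.59 and 7.64 in B6xPWD, against 8.30, 8.46 and 8.34 in PWD and 8.35, 8.27 and 8.26 in B6. The hybrid arrays lay close together and well under every parental array, 0.68 below the mid-parent (difference -0.68, SE 0.125, adjusted p = 0.00254). Cyp26b1, the enzyme that degrades retinoic acid in the fetal and juvenile testis, read 8.27, 8.08 and 8.15 in B6xPWD, against 9.06, 9.06 and 8.96 in PWD and 8.95, 9.11 and 8.68 in B6, a difference of -0.80 (SE 0.163, adjusted p = 0.00444). Rara kept its place below both parents in all 9 fits, and Cyp26b1 in all but that without B6 replicate 2.

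Further members of the retinoic acid pathway moved in both directions. Of 17 tested members of the list 2 rose and 5 fell, with a median difference of -0.11 against -0.03 over all autosomal genes. Aldh1a2, the enzyme that makes retinoic acid from retinal, rose by 0.78 (SE 0.108, adjusted p = 0.000292), with 9.79, 9.95 and 10.01 in B6xPWD, against 8.42, 8.58 and 8.87 in PWD and 9.63, 9.60 and 9.72 in B6. It was thus above PWD by 1.29 and above B6 by 0.27, which did not pass the test (adjusted p = 0.145). Crabp1, a cellular binding protein of retinoic acid, rose by 0.63 (adjusted p = 0.024), with overlap between B6xPWD and PWD. Cyp26c1, Crabp2 and Rxra, named after their values were seen, fell by 0.45, 0.28 and 0.24. Stra8, the gene that retinoic acid switches on at entry into meiosis, had 8.85, 8.95 and 9.09 in B6xPWD, against 8.81, 9.02 and 8.77 in PWD and 7.76, 7.88 and 8.39 in B6, near the PWD level. The count of fallen members of the list was 2 or 3 without B6xPWD replicate 1, 2 or 3, any PWD array or B6 replicate 2.

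Tpcn1, a cation channel of endosomes and lysosomes, fell by 0.88 (SE 0.15, adjusted p = 0.00152), with 6.82, 6.94 and 7.04 in B6xPWD, against 7.64, 7.59 and 7.55 in PWD and 8.11, 8.01 and 8.01 in B6. St8sia2, which builds polysialic acid on cell-surface proteins, fell by 0.82 (SE 0.142, adjusted p = 0.00174). Mark4, a kinase of microtubule-binding proteins, fell by 0.75 (adjusted p = 0.003), with 8.35, 8.51 and 8.54 in B6xPWD, against 9.21, 9.31 and 9.05 in PWD and 9.23, 9.26 and 9.24 in B6. Tubb3, a beta-tubulin, fell by 0.85 (adjusted p = 0.0131), and its place below both parents was lost in 6 of 9 fits, those without any hybrid or any B6 array. Clstn1, a transmembrane cargo adaptor, fell by 0.72, Obsl1, a cytoskeletal adaptor, by 0.71, Sned1, a matrix protein, by 0.67 and Celsr1, a cadherin of planar cell polarity, by 0.67. Of the 12 leading genes below both parents 4 kept the call in all 9 fits, namely Mark4, Rara, Sned1 and St8sia2, and 5 lost it without B6xPWD replicate 2.

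All 37 collagens, laminins and other matrix genes tested lay below the mid-parent. Of these 18 fell and 0 rose past the test, the median difference was -0.40, and 7 were below both parents. Col1a1, a chain of type I collagen and also a peritubular marker, had 9.37, 9.05 and 9.20 in B6xPWD, against 9.81, 9.65 and 10.09 in PWD and 10.08, 10.14 and 9.64 in B6, a difference of -0.70 (SE 0.176, adjusted p = 0.0136). The hybrid arrays lay below all parental arrays by a narrow gap to PWD replicate 2 and B6 replicate 3. Fbn2, a fibrillin, fell by 0.76 (adjusted p = 0.00141), Col15a1, a basement membrane collagen, by 0.67, Hspg2, the proteoglycan perlecan, by 0.61, and Col4a2, a chain of type IV collagen, by 0.46. Col4a2 had hybrid arrays within 0.02 of each other, at 7.83, 7.84 and 7.85 in B6xPWD, against 8.21, 8.12 and 8.23 in PWD and 8.39, 8.58 and 8.28 in B6. The number of fallen matrix genes was 5 without B6xPWD replicate 2 and 16 to 18 without any other array.

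Over all autosomal genes tested 6.72% were lower than the mid-parent, and the signalling lists are read against that share. In the TGF-beta and BMP list 9 of 33 members fell and 1 rose. Tgfb1, the ligand, had 7.38, 7.26 and 7.27 in B6xPWD, against 7.78, 7.75 and 7.56 in PWD and 8.67, 8.41 and 8.53 in B6, a fall of 0.81 against the mid-parent (SE 0.143, adjusted p = 0.002), with no call against PWD (adjusted p = 0.103). The latent TGF-beta binding proteins Ltbp4, Ltbp1 and Ltbp2 fell by 0.70, 0.56 and 0.50. In the Notch list 4 of 21 fell and 1 rose: the receptors Notch1 and Notch2 and the ligand Dll4 fell by 0.80, 0.59 and 0.34, and the target gene Hey1 rose by 0.42. Of the hedgehog list 2 of 12 fell, the receptor Ptch1 by 0.41 and the transcription factor Gli1 by 0.38, and of the Wnt list 1 of 34, the transcription factor Tcf7l2 by 0.35, a smaller share than over all genes. Without B6xPWD replicate 2 the fallen members numbered 3 for TGF-beta and BMP, 1 for Notch and 0 for hedgehog and Wnt. The other arrays left hedgehog at 0 to 2 and Wnt at 0 to 3, and both lists had 0 calls without B6 replicate 2 or PWD replicate 3.

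Somatic cell markers moved with these genes. Of 11 peritubular and stromal markers 4 fell and 0 rose, with a median of -0.36 and array means of 8.58 to 8.71 in B6xPWD, 8.86 to 9.08 in PWD and 8.91 to 9.18 in B6. Of 9 endothelial markers 4 fell and 0 rose, with a median of -0.35 and array means of 5.82 to 6.29 in B6xPWD, 6.28 to 6.39 in PWD and 6.40 to 6.67 in B6. Of 5 Leydig cell markers 2 fell, with a median of -0.64, and 0 fell without B6xPWD replicate 1 or 3 or PWD replicate 3. Of the 11 Sertoli markers 3 fell, with a median of -0.07. Wt1, a transcription factor of Sertoli cells, fell by 0.58, with 9.97, 9.95 and 10.05 in B6xPWD, against 10.39, 10.47 and 10.60 in PWD and 10.63, 10.68 and 10.63 in B6. Without B6xPWD replicate 2 the counts were 0 for peritubular and Sertoli markers, and that for endothelial markers was 0 without B6xPWD replicate 1. Among 7 macrophage markers 0 passed, by limma, with array means of 5.93 to 6.13 in B6xPWD, 5.80 to 5.95 in PWD and 6.05 to 6.37 in B6. In pooled tissue fewer cells of a type and less RNA per cell cannot be told apart, and the part of the somatic markers in the fall of matrix and signalling genes was not tested.

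Oxidative phosphorylation genes rose together. Over all autosomal genes 7.33% rose, and the counts of risen genes here and in the lists below are read against that share. Of 44 autosomal members tested 30 rose and 0 fell, 42 lay above the mid-parent, the median was 0.53, and 16 were above both parents. Cox7a2, a subunit of cytochrome c oxidase, had 9.30, 9.22 and 9.07 in B6xPWD, against 8.22, 8.27 and 8.33 in PWD and 7.88, 8.26 and 8.43 in B6, a rise of 0.97 (SE 0.159, adjusted p = 0.00135). Atp5e, a small subunit of ATP synthase, rose by 1.05 (adjusted p = 0.00318), and the complex I genes Ndufa9 and Ndufb8 by 0.80 each. Ndufb6, also of complex I and named after its values were seen as the list's highest, rose by 1.18. Within the list Cycs, which encodes the cytochrome c of somatic cells, lay lowest at -0.37 and was not called. The number that rose was 8 without B6xPWD replicate 2, 13 without B6xPWD replicate 1 and 22 to 31 without any other array.

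Proteasome genes showed the same direction. Of 33 members 14 rose and 0 fell, with a median of 0.35, and 9 were above both parents. Psma1, an alpha subunit of the core particle, read 10.17, 10.17 and 9.96 in B6xPWD, against 9.51, 9.48 and 9.34 in PWD and 9.39, 9.42 and 9.51 in B6. Its parental means differed by less than 0.01, and the hybrid was 0.65 higher (SE 0.102, adjusted p = 0.000843). Psmb1 and Psmb3, beta subunits of the core particle, rose by 0.71 and 0.63, and Psmd6, of the regulatory particle, by 0.50, at the B6 level. Without B6xPWD replicate 2 the count was 4 and without replicate 1 it was 8, with 12 to 17 for the other arrays.

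Genes of the germ line rose in smaller numbers, from lists with fewer members, and none of their lists had a fall except that of testis histones. Of 11 autosomal retrogenes derived from the X, copies that serve while the X is silenced in meiosis, 5 rose, with a median of 0.80. Rpl10l, such a copy of a ribosomal protein gene, had 9.11, 9.43 and 8.72 in B6xPWD, against 7.34, 7.39 and 6.97 in PWD and 7.89, 8.15 and 8.35 in B6, a rise of 1.40 (SE 0.263, adjusted p = 0.00308). Of 16 testis forms of metabolic enzymes 5 rose, with a median of 0.64. Slc25a31, the testis carrier that exchanges ADP and ATP across the inner mitochondrial membrane, had 10.67, 10.63 and 10.60 in B6xPWD, against 9.71, 9.94 and 10.01 in PWD and 9.91, 9.54 and 10.002 in B6, and kept its place above both parents in all 9 fits. Pdha2, Cox7b2 and other genes are members of both lists, so the lists are not separate evidence. Both counts were 2 without B6xPWD replicate 2.

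Each functional list of meiotic genes held some rises, read against the 7.33% of all autosomal genes that rose. In synapsis and cohesin 5 of 17 rose and all 17 lay above the mid-parent (median 0.33). Sycp3, of the lateral element of the synaptonemal complex, had 10.35, 10.40 and 10.37 in B6xPWD, against 9.53, 9.72 and 9.97 in PWD and 9.35, 9.05 and 9.40 in B6, a rise of 0.87 (SE 0.188, adjusted p = 0.00654). Tex12, of the central element, rose by 0.81, Meioc, a regulator of meiotic transcripts, by 0.52 and Rad21l, a meiotic cohesin, by 0.47. In recombination 4 of 18 rose: Cntd1 by 0.97, Rec114, needed for double-strand breaks, by 0.69, Ccnb1ip1, a crossover factor, by 0.65 and Spata22 by 0.61. In the piRNA pathway 3 of 19 rose and all 19 lay above the mid-parent, with Asz1 and Gtsf1 0.85 and 0.83 higher and Tdrkh 0.47 higher. Of 22 pachytene spermatocyte genes 4 rose (median 0.43), among them Pttg1, which encodes securin, by 0.69 at the B6 level. Without B6xPWD replicate 2 these counts were 2, 2, 0 and 2. That of recombination was 2 without any array other than B6 replicate 3.

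Genes of dividing cells and of the DNA damage response were also above both parents in part. In the mitotic list 5 of 22 rose. Cdk1, the kinase of entry into division, had 8.93, 9.04 and 8.90 in B6xPWD, against 7.94, 8.14 and 7.97 in PWD and 8.44, 8.10 and 8.31 in B6, a rise of 0.81 (SE 0.131, adjusted p = 0.0012), and Cdc20, an activator of the anaphase-promoting complex, rose by 0.90. Both kept their place above both parents in all 9 fits. In the damage and apoptosis list 5 of 24 rose and 2 fell. Pmaip1, a p53 target that promotes apoptosis, had 7.65, 7.89 and 7.86 in B6xPWD, against 6.78, 6.74 and 6.74 in PWD and 6.75, 6.85 and 6.94 in B6, a rise of 1.00 (SE 0.108, adjusted p = 3.32e-05) that no left-out array removed. It was likewise 7.67, 7.95 and 7.35 in PWDxB6. The p53 targets Mdm2, Trp53inp1 and Ccng1 rose by 0.53, 0.51 and 0.42. The counts of risen genes without B6xPWD replicate 2 were 2 in each list, and 3 and 2 for the mitotic list without B6xPWD replicates 1 and 3.

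The markers of germ cells rose in the same samples, 3 of 6 called (Dazl, Sycp3 and Tex101) and 6 of 6 above the mid-parent, with a median of 0.45. Sycp3 is also a member of the synapsis list and Tex101 of the fertilization list, so these markers are not separate evidence. The 3 hybrid arrays had a higher mean of these markers than any parental array. The part of germ cell content in the rises listed was not tested. Spermatogonial genes had a median of 0.05, with 3 of 20 called, Sohlh2, Stra8 and Dmrtb1. Of 31 axoneme and cilia genes 2 rose, Rsph1, of the radial spokes, by 1.26 and Spag6 by 0.49, with a median of 0.12 and 22 above the mid-parent. Of 14 fertilization and calmegin chaperone genes 1 rose, Tex101 by 0.72, with a median of 0.23 and 10 above the mid-parent. Both shares were close to the 7.33% of all autosomal genes that rose. Meig1, a gene of spermatid formation, had a difference of 0.93 (adjusted p = 0.125) and Clgn, the chaperone calmegin, 0.84 (adjusted p = 0.0956), neither past the test. In the list of testis histones and chromatin 3 of 17 rose, the testis histones H2bc1 and H2ac1 by 0.66 and 0.31 and Morc1 by 0.40, and Dot1l, a histone methyltransferase, fell by 0.61. The histone count was 0 without B6xPWD replicate 2 or B6 replicate 2, 5 without B6 replicate 3 and 1 without any other array. The counts that rose without B6xPWD replicate 2 were 0 for spermatogonial, axoneme and fertilization genes, with an axoneme median of -0.01, and 1 for germ cell markers, which also had 1 without B6xPWD replicate 1.

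**Figure D4:**
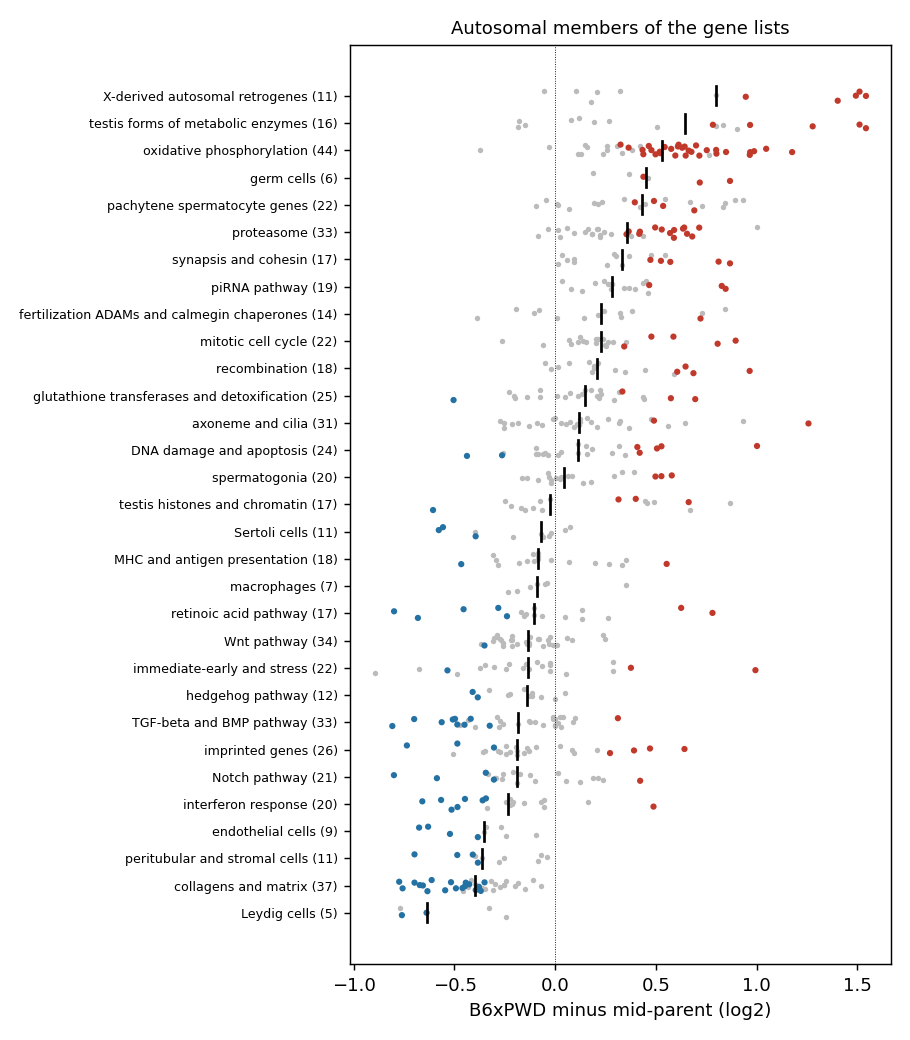
B6xPWD minus mid-parent (log2, x axis) for each tested autosomal member of the gene lists, with the number tested in parentheses; red points rose and blue points fell past the test, grey points did not pass, and black bars mark list medians. Retrogenes, testis metabolic enzymes and oxidative phosphorylation have the highest medians (0.80, 0.64 and 0.53), and matrix genes and Leydig cell markers the lowest (-0.40 and -0.64).

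Gene length went along with the direction. Genes that rose against the mid-parent spanned a median of 12 kb on the genome, those that fell 42.9 kb and all autosomal genes tested 21.7 kb. For genes above and below both parents the medians were 10.3 and 42.2 kb. With genes ranked into 4 equal classes by span, the share that rose was 11.4%, 9.2%, 6.13% and 2.59% from the shortest to the longest class, and the share that fell was 3.8%, 4.58%, 6.87% and 11.6%. The part of span in the gene group results was not tested. Across the 19 autosomes the share of genes outside the parental range ran from 2.14% on chromosome 8 to 5.48% on chromosome 10, so these genes were spread over the genome.

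Additive genes made up the other side of the comparison. Across the 2623 genes that differed between the parents, the hybrid was placed on a scale with the PWD mean at 1 and the B6 mean at -1. The median position was 0.003 (quartiles -0.56 and 0.63), 1943 genes (74.1%) lay between the parental means, 366 lay beyond PWD and 314 beyond B6. Of the 457 additive genes 228 were higher in PWD (1.6% of all tested) and 229 in B6 (1.61%), and their median parental difference was 0.79. In 296 of them (64.8%) the 3 hybrid arrays lay between the 2 parental groups without overlap. Over all autosomal genes 2240 (15.8%) passed against PWD and 2383 (16.8%) against B6. Of the 457, 139 passed the test against both parents, 98 against PWD alone, 93 against B6 alone and 127 against neither, so for these last the middle place rests on the interval. A departure from the exact midpoint of the log2 values passed the test in 5 of them.

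Kcnc2, a voltage-gated potassium channel, had 7.04, 7.18 and 7.55 in B6xPWD, against 8.33, 8.31 and 8.31 in PWD and 5.63, 5.82 and 5.61 in B6. The 3 groups were apart, and the mid-parent difference was 0.25 with a 95% interval of -0.01 to 0.52. Serpina5, an inhibitor of serine proteases, had 9.55, 9.66 and 9.44 in B6xPWD, against 8.57, 8.34 and 7.97 in PWD and 10.48, 10.42 and 10.61 in B6, 0.15 from the midpoint (interval -0.15 to 0.44). Slc16a4, of the monocarboxylate transporter family, had 5.93, 6.07 and 6.41 in B6xPWD, against 5.02, 5.29 and 4.98 in PWD and 7.37, 7.12 and 7.36 in B6, -0.05 from the midpoint (interval -0.36 to 0.25). Gask1a, a Golgi-associated kinase-like protein, had 6.96, 6.97 and 7.29 in B6xPWD, against 7.66, 7.87 and 7.77 in PWD and 5.74, 5.62 and 5.36 in B6. It was between the parents and also above the midpoint of the log2 values by 0.40 (adjusted p = 0.0159). So were Abca6, a lipid transporter of the ABC family, by 0.51 (adjusted p = 0.0435) and Slc16a3, a lactate transporter, by 0.61 (adjusted p = 0.0323). The log2 midpoint lies below the midpoint of unlogged levels when the parents differ. A place above it is therefore not in itself a departure from copies that act independently. With a linear mid-parent 446 genes were additive.

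Cadps, of secretory vesicle priming, S100b, a calcium-binding protein, Catspere2, of a family of sperm calcium channel subunits, and Mx2, an interferon-induced GTPase, were likewise additive with the higher level in PWD, by 2.03 to 2.23. Bbox1, of carnitine synthesis, and Olfml3, a secreted olfactomedin-like protein, were additive with the higher level in B6 (PWD minus B6, -2.62 and -2.24). Of the 6 leading genes in each direction 4 stayed additive in all 9 fits. The exceptions were Abca6 without B6xPWD replicate 1, Cadps and Mx2 without replicate 3, and Slc16a3 without B6xPWD replicate 3 or B6 replicate 2 or 3.

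**Figure D5:**
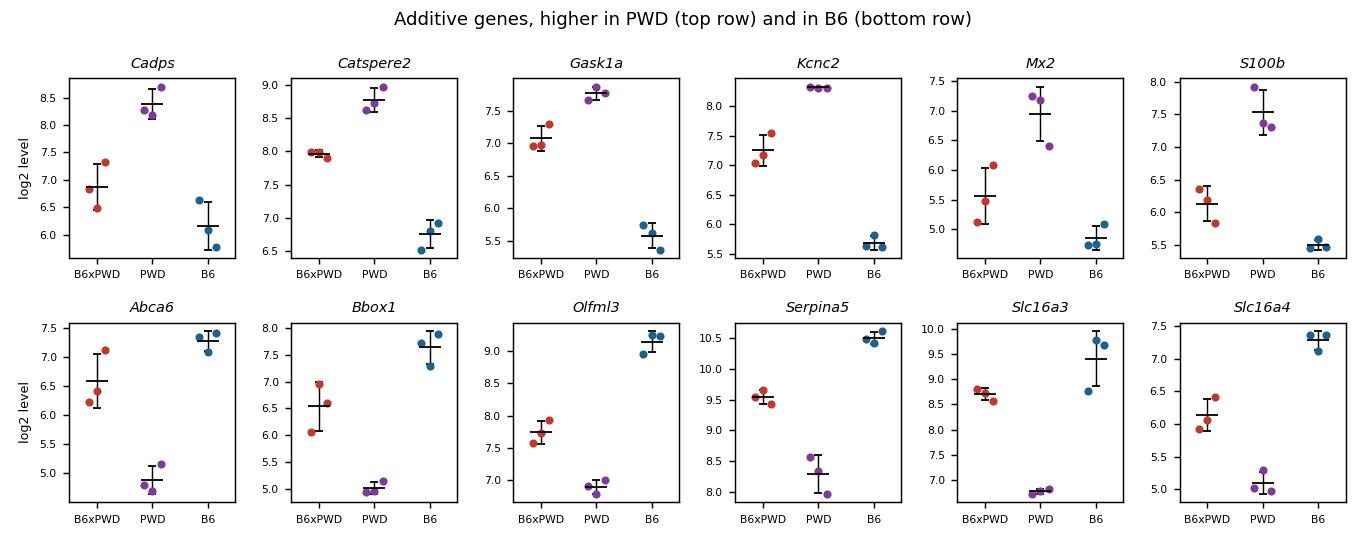
Log2 levels of the 6 leading additive genes higher in PWD (top) and the 6 higher in B6 (bottom), with a point per array, from left B6xPWD, PWD and B6, and lines for the mean ± SD (n = 3 each); each panel has its own y axis. The hybrid means lie between the parental means in every panel, and a B6 array overlaps the hybrid arrays in Cadps, Slc16a3 and Abca6.

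The strain difference behind the additive class was also seen in arrays whose group means the class did not use. The spread of these arrays did enter the shared variance of the fit. Genes with little spread are thus favoured both for the class and for the call below, which are not independent. PWDxPWK minus the mean of B6xBALB/C and BALB/CxB6 is a difference of the same kind between F1s within each subspecies, and 1570 autosomal genes (11%) passed in it. It had the sign of PWD minus B6 in 454 of the 457 additive genes and was called in that direction in 351 (76.8%) and against it in 0. Over all 2623 genes that differed between the parents the numbers were 2507, 1096 (41.8%) and 5, with a smaller median parental difference of 0.51, and over all autosomal genes 1529 (10.8%) were called in the direction of PWD minus B6. The reference genome of the mouse is that of B6, and array probes follow it, so a PWD base change under a probe and a lower PWD transcript level cannot be told apart in additive genes that are lower in PWD. A probe effect of that kind would also be additive.

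Immune genes included additive neighbours in the antigen presentation list and genes at the B6 level in the interferon list. The antigen transporter genes Tap1 and Tap2 and the immunoproteasome genes Psmb8 and Psmb9, neighbours within the MHC on chromosome 17 and named after their values were seen, were all additive. Tap1 had 7.36, 7.32 and 7.34 in B6xPWD, against 8.48, 8.28 and 8.35 in PWD and 6.53, 6.55 and 6.48 in B6, a mid-parent difference of -0.11 (adjusted p = 0.356). Tap2 had 7.86, 7.74 and 7.45 in B6xPWD, against 8.61, 8.33 and 8.37 in PWD and 6.52, 6.70 and 6.38 in B6. Of 18 members of this list 8 differed between the parents, 4 were additive, 1 rose (H2-Ab1, a class II chain, by 0.55) and 1 fell (Nlrc5, an activator of class I genes, by 0.47). Over all autosomal genes 18.4% differed between the parents, 3.21% were additive, 7.33% rose and 6.72% fell.

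Of 20 interferon response genes 11 differed between the parents, 3 were additive, 1 rose and 7 fell against the mid-parent. Ddx58, the RNA sensor RIG-I, had 6.44, 6.63 and 6.82 in B6xPWD, against 7.85, 7.97 and 7.70 in PWD and 6.80, 6.78 and 6.66 in B6, a fall of 0.66 (SE 0.101, adjusted p = 0.000784) to the B6 level. Irf9, a subunit of the interferon-activated transcription factor, fell by 0.34 in the same way, 0.72 below PWD and 0.03 above B6. Oasl2, an oligoadenylate synthetase-like protein, was the list's single gene below both parents, with 7.63, 7.59 and 7.70 in B6xPWD, against 8.27, 8.48 and 8.10 in PWD and 8.03, 7.96 and 8.10 in B6. It fell by 0.51 (adjusted p = 0.00125) and kept its place below both parents in all 9 fits, and Usp18, which limits interferon signalling, fell by 0.49. The number of fallen genes was 3 without B6xPWD replicate 2 and 4 without replicate 1.

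Genes near the level of 1 parent included Scn3b, a sodium channel beta subunit, with 6.68, 6.61 and 7.01 in B6xPWD, against 7.31, 6.89 and 6.73 in PWD and 4.75, 5.26 and 4.86 in B6. Cyp1b1, a cytochrome P450, was near PWD as well, with means and SDs over 3 arrays of 5.39 ± 0.22 in B6xPWD, 5.34 ± 0.24 in PWD and 6.92 ± 0.01 in B6. Adam2, a sperm-surface protein of fertilization, was near B6, with 7.28, 8.03 and 6.92 in B6xPWD, against 5.15, 5.71 and 5.40 in PWD and 7.71, 7.68 and 8.42 in B6. Ptchd3, Gk2 and Rnf7 were near B6 too, with PWD minus B6 differences of -2.33 to -2.36. Prdm9, the histone methyltransferase that places recombination sites and is a known hybrid sterility gene, was named after its values were seen: it had 7.67, 7.65 and 8.17 in B6xPWD, against 8.22, 8.46 and 8.62 in PWD and 7.80, 7.29 and 7.90 in B6, and fell in the class near B6.

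Imprinted genes give a case where the parent of origin matters, since only the copy of a single parent is read. Of 26 members 4 rose and 3 fell, and 3 differed between the parental strains. Over all autosomal genes 7.33% rose, 6.72% fell and 18.4% differed between the strains. The counts of the list are small, and whether they depart from these shares was not tested. The counts without B6xPWD replicate 2 were 1 and 1, and with any other array left out 2 or 3 rose and 1 to 4 fell. Nnat, which is read from the paternal copy, had 7.43, 7.28 and 7.28 in B6xPWD, whose father is PWD, against 7.40, 7.58 and 7.48 in PWD and 6.13, 6.31 and 6.25 in B6. In PWDxB6, whose father is B6, it had 6.38, 6.59 and 6.27. The crosses thus differed by 0.92 (adjusted p = 0.000343), and each lay at the level of its father's strain. Peg10, also paternal, was lower than both parents' arrays, with 9.43, 9.55 and 9.76 in B6xPWD, against 10.05, 10.07 and 10.07 in PWD and 10.70, 10.52 and 10.51 in B6, a fall of 0.74 against the mid-parent (adjusted p = 0.00763). Peg10 did not pass the test against both parents, and no gene of the list was called below both. Cdkn1c, read from the maternal copy, rose by 0.64 (adjusted p = 0.0053) above both parents, a place it lost without B6xPWD replicate 2 or any PWD array.

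The mid-parent rests on inbred strains, so the hybrid was also set against F1s within the subspecies. This reference, with PWDxPWK weighted equally to B6xBALB/C and BALB/CxB6 together, shares no array with PWD or B6, although the hybrid arrays are the same. B6xBALB/C replicate 6 lay farthest from the others of its genotype. Against these F1s 225 autosomal genes passed (1.58%), 136 higher (0.956%) and 89 lower (0.626%), or 199 and 62 with centred arrays. Because the same hybrid arrays placed genes outside the parental range, the sign of this difference in those genes is largely fixed by that choice, and values are given for single genes as a description. Got1l1 averaged 7.49 in B6xPWD and 6.23, 6.44 and 6.27 in PWDxPWK, B6xBALB/C and BALB/CxB6, a difference of 1.20 (adjusted p = 6.46e-05), and Pmaip1 was 0.75 higher (adjusted p = 0.000408). Rara was 0.56 lower (difference -0.56, adjusted p = 0.0213). Rps21, Tex30 and Hint1 were 0.86, 0.59 and 0.88 higher without passing (adjusted p = 0.0621, 0.0651 and 0.0677). The oxidative phosphorylation and matrix lists had 1 call each, higher and lower in turn, while the interferon list had 5 lower. The count over all genes was 35 without B6xPWD replicate 2 and 319 without B6xBALB/C replicate 6.

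In the reciprocal cross PWDxB6 replicate 2 stood on the side of B6xPWD: it was the highest of its group in all 12 leading genes above both parents and the lowest in all 12 below. B6xPWD and PWDxB6 differed in 362 autosomal genes (2.55%), 188 higher in B6xPWD (1.32%) and 174 lower (1.22%), or 292 and 92 with centred arrays. The hybrid arrays that placed genes outside the range also enter this difference, so counts of those genes in it are not given. Of the 457 additive genes 4 differed between the crosses, and in 445 the PWDxB6 mean also lay between the parental means, against 2266 of all 2623 genes that differed between the parents. The additive class was chosen with the same parental and B6xPWD arrays and has a wider parental difference (median 0.79 against 0.51). Both counts are thus favoured by that choice and are given as a description. PWDxB6 itself departed from the mid-parent in 63 genes (0.443%). Without PWDxB6 replicate 2, 567 genes differed between the crosses, without PWDxB6 replicate 1 or 3 the counts were 56 and 32, and without B6xPWD replicate 2 the count was 32. Rps21, for example, had 8.94, 8.95 and 8.10 in B6xPWD, against 6.97, 8.06 and 7.12 in PWDxB6.

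Remaining lists held few calls. Of 25 glutathione transferase and detoxification genes 3 rose, Gstm5 by 0.70, Sod1, the cytosolic superoxide dismutase, by 0.57 and Gstk1 by 0.33, and Ephx1, an epoxide hydrolase, fell by 0.50. The number that rose was 0 without B6xPWD replicate 2, 1 without any other array except PWD replicate 3 (2) and B6 replicate 3 (3), and the share over all genes was 7.33%. Of 22 immediate-early and stress genes 2 rose and 1 fell, against 7.33% and 6.72% of all autosomal genes, and 0 did either without B6xPWD replicate 2. Ier3 rose by 0.99 (adjusted p = 0.0127), with 7.63, 8.47 and 7.02 in B6xPWD, against 6.95, 6.85 and 7.04 in PWD and 6.35, 6.36 and 6.73 in B6, so hybrid replicate 3 overlapped PWD. Dnajb1, a heat shock co-chaperone, rose by 0.38 and Egr3 fell by 0.53. The red blood cell list had a single tested autosomal member, Slc4a1, with a difference of -0.17 and no call.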

How the data were processed

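RNA of 23 pools of 4 testes was measured on Affymetrix Mouse Gene 1.0 ST arrays, per the labels. The deposited values are log2 signals per probe set, and neither summarisation nor normalization by the authors is given in the sources used here. The labels' protocol and the design text name different labelling kits, and the authors left out 1 PWDxPWK array, per the design text. Of 25690 probe sets 20777 had 1 gene symbol, 232 several and 4681 none. For each of 19661 genes the probe set with the highest mean was kept, and the lowest 25% of genes by mean (under 5.12) were left out. A limma 3.58.1 model (R 4.3.3) of 7 genotype means over all 23 arrays gave 16 residual degrees of freedom, with Benjamini-Hochberg adjustment over 14746 genes. The procedure was also run on simulated data with independent noise in each array, which cannot speak to the weight of single arrays seen here. Figures were drawn with matplotlib 3.10.9 (Python 3.11.15). Replicates are pools of animals, so p-values measure the spread between pools.

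The leading genes were the 12 above and the 12 below both parents without overlap and with the largest smaller difference, 6 additive genes in each direction and 4 near each parent by parental difference, and up to 4 members per list by unadjusted p against the mid-parent. Members of this comparison and the 32 gene lists were chosen with earlier results of these data known. List members named beyond the rule were chosen after their values were seen. Alternatives were other filters, scalings, variance models, array weights, a replicate block, fits of only the groups compared, a linear mid-parent and leaving out arrays. Leaving out PWDxB6 arrays or B6xBALB/C replicate 6 was chosen after seeing the data.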

Additional observations from a re-analysis of the deposited data

Results flagged for a closer look

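Of the 157 genes named by rule 33 differed between the 2 directions of the cross in the departure from the mid-parent. The limma test was of B6xPWD minus PWDxB6, in which the mid-parent cancels (adjusted p from 0.000343 to 0.0497). Over all autosomal genes the share called was 2.55%. Many named genes were picked by their departure in the same B6xPWD arrays, which favours a call here. The count is thus not a result about these genes. All values here are that log2 difference, and single arrays decide how many autosomal genes pass: 362 with all arrays, 32 without B6xPWD replicate 2, and 56, 567 and 32 without PWDxB6 replicates 1, 2 and 3. Among genes of metabolism, mitochondria, ribosomes and protein turnover it was 1.645 for Rpl39l, 1.55 for Hint1, 1.53 for Rnf7, 1.28 for Rps21, 1.17 for Tomm7, 1.02 for Got1l1, 0.93 for Atp5e, 0.79 for Ndufb8 and 0.56 for Psmd6. In germ-line genes it was 0.89 for Gtsf1, 0.87 for Asz1, 0.86 for Tex30, 0.80 for Ccnb1ip1, 0.75 for Tex101, 0.60 for Rec114, 0.59 for Meioc and 0.53 for Pttg1.

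Among signalling and stress genes the difference was 1.16 for Ier3, 0.59 for Scn3b, 0.53 for Trp53inp1, 0.51 for H2-Ab1 and 0.47 for Aldh1a2. Genes lower in B6xPWD than in PWDxB6 were Cyp26b1 (-0.88), Tgfb1 (-0.88), Mark4 (-0.74), St8sia2 (-0.70), Tpcn1 (-0.65), Rara (-0.62), Sfrp2, a secreted Wnt modulator (-0.59), Des, the muscle filament desmin (-0.55), Nlrc5 (-0.51) and Col4a2 (-0.40). Nnat, imprinted and read from the paternal copy, differed by 0.92, with the smallest adjusted p of these genes, and was 0.47 above the mid-parent in B6xPWD and at -0.45 from it in PWDxB6.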

How the results depend on the processing

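With array weights the counts were 5710 against the mid-parent (2637 higher, 3073 lower), 2211 outside the parental range (1136 above, 1075 below), 736 additive, 3260 against the intra-subspecific F1s and 4425 against PWDxB6. With only the compared groups fitted, 100 genes passed against the intra-subspecific F1s and 173 against PWDxB6. Leaving out 1 array gave 325 (without B6xPWD replicate 2) to 2292 against the mid-parent, with 1295 without B6xPWD replicate 1. It gave 117 to 503 outside the range, 308 to 504 additive, 1742 (without PWD replicate 2) to 2272 for PWD minus B6, 35 to 319 against the intra-subspecific F1s and 32 to 567 against PWDxB6. The number outside the range was 231, 270 and 264 without PWD replicates 1, 2 and 3, and 301 and 260 without B6 replicates 1 and 2. The other filters, variance models and mid-parent scale kept these counts within 1.5 times. Over 157 named genes and 3244 gene and setting pairs, 2926 kept direction and side of the threshold, 258 lost the call and 58 gained it. The sign turned in 2, with array weights, for C1qa (0.0314) and Slc4a1 (0.0304), neither called. The causes were not tested.

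Replicate numbers were not used to pair the samples in the main fit. Among B6xPWD, PWD and B6, deviations of same-numbered arrays correlated between -0.23 and 0.26, and only some pairs were over 0.1. Pairs with PWDxB6 or the other genotypes were not checked, so a link through the replicate number was not settled. The fit with a replicate block left out B6xBALB/C replicates 4, 5 and 6, so its counts also differ in the arrays used. With a replicate block 809 genes lay outside the range (493 above, 316 below) and 972 differed from PWDxB6, while 2767 passed against the mid-parent, 543 were additive, 244 passed against the intra-subspecific F1s and 3173 for PWD minus B6.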
